A study of Homo sapiens with 12 samples.

Results

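The genes described here encode the enzymes that break down phenylalanine and tyrosine. They are 8 of the 57815 genes listed for each library and were taken by symbol from a fixed list, with no use of their values: *HGD*, *HPD*, *HPDL*, *FAH*, *GSTZ1*, *TAT*, *QDPR* and *PCBD1*. The question was whether the whole route, or only *HGD* and *HPDL*, followed NRF2 in each of 3 cell lines. The study counted *HGD* and *HPDL* among its NRF2 effectors after calling both lower in all 3 lines on these same libraries. Their fall here is thus not independent evidence. The study also kept only genes not raised by diethylmaleate in other lung cancer lines, and then those correlated with NRF2 activity in lung adenocarcinoma data. With the settings used first below, both passed in H460 only, so the calls here differ from the study's in A549 and H2023.

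The libraries come from established human non-small cell lung cancer lines, all with a mutation of KEAP1. H460 is a large cell carcinoma of the lung per its label, while H2023 and A549 have the label lung adenocarcinoma. In each line, 2 libraries came from cells given control siRNA and 2 from cells given NRF2 siRNA, all collected 48 h after transfection, which makes 12 libraries in 6 groups. The NRF2 siRNA library numbered 0 was made with siRNA 28 and the one numbered 1 with siRNA 30, so the spread within such a group includes the difference between the siRNAs, while control libraries are biological duplicates. Each line is 1 cell line in culture, A549 in high glucose medium and the others in low glucose medium. A549 RNA was depleted of rRNA whereas H2023 and H460 RNA was selected for polyA, so levels in A549 were not compared with those in the other lines, and line and protocol cannot be told apart there. Values are FPKM, fragments per kilobase of transcript and per unit of library size, a level that allows for gene length. Read counts per library are not given in these values, so no counting error is attached to them.

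Degradation of tyrosine starts with transamination by TAT to 4-hydroxyphenylpyruvate. HPD turns this into homogentisate, HGD opens its ring, GSTZ1 isomerises the product and FAH splits it into fumarate and acetoacetate. Phenylalanine enters by hydroxylation to tyrosine, for which PCBD1 and QDPR recycle the cofactor tetrahydrobiopterin. HPDL is a mitochondrial relative of HPD and is known for a step in making the head group of coenzyme Q. The route as a whole is known from liver and kidney. NRF2, encoded by *NFE2L2*, is a transcription factor that pairs with small MAF proteins at antioxidant response elements, and KEAP1 targets it for degradation.

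The targeted gene was lowered in every line. *NFE2L2* in NRF2 siRNA libraries stood at 19.0%, 6.10% and 7.68% of the control mean in A549, H2023 and H460, and its log2 fold change was -2.24, -3.86 and -3.60. Across libraries, 12732 to 13909 genes reached 1 FPKM. The share of mitochondrially encoded genes in the summed FPKM was 0.892% to 1.56% for A549, 11.965% to 22.8% for H2023 and 8.56% to 26.0% for H460, where both NRF2 siRNA libraries lay above both control libraries. Of 5 epithelial markers, all 5 reached 1 FPKM in both libraries of each group of A549 and H2023 and 3 did in H460, where *CDH1* and *EPCAM* stayed at or below 1.19 FPKM. None of 5 lung epithelial markers reached 1 FPKM in both libraries of any group, and *NKX2-1*, *SFTPB*, *SFTPC* and *SCGB1A1* were at or below 0.353 FPKM in every library. Of 7 liver markers, *CPS1* was high in all 3 lines, with *HNF4A* in A549 and *ALB* in H2023 also above 1 FPKM (*HNF4A* at 23.5 and 18.9 FPKM in control and 8.27 and 11.4 FPKM in NRF2 siRNA libraries of A549, without overlap), whereas *APOA1*, *APOA2* and *TTR* were at or below 0.657 FPKM. The summed liver markers lay at 229 to 318 FPKM in control and 487 to 925 FPKM in NRF2 siRNA libraries of H460, almost all of it *CPS1*, and overlapped between groups in A549 and H2023. The summed epithelial markers were higher after NRF2 siRNA in H2023 (2129 to 2547 against 4624 to 5273 FPKM) and H460 (1142 to 1335 against 1743 to 2606 FPKM). Of 4 immune markers *PTPRC* and *CD3E* were at or below 0.470 FPKM and *CD14* was at 1.77 and 5.49 FPKM in control and 17.6 and 19.4 FPKM in NRF2 siRNA libraries of H460. The 2 endothelial markers found were at or below 0.129 FPKM, and the 4 fibroblast markers together reached at most 8.17 FPKM. The part of these shifts in the results below was not tested.

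Promoter sequences are shown first. Those of *HPD* and *HPDL*, which encode related enzymes, are printed because both were lower in H460. *HPD* entered that test only through its control libraries. As the choice used their values, nothing is read from matches in them. RefSeq promoter windows of 300 bases (250 before and 50 after a transcript start, GRCh38.p14) were given for 6 of the 8 genes in 8 windows (*HGD* and *TAT* were not searched here), and were searched on both strands for the core of the antioxidant response element, TGACNNNGC. Of all 34943 windows, 13.3% hold it. The *HPDL* window holds 2 matches that do not overlap, at -155 and -64 from the start. The window at the *HPD* start inside the annotated gene holds 1, at -213, and the window of a start further upstream, outside the gene bounds of the annotation used, holds 2, at -85 and -38. One of 2 windows of *FAH* holds a match at -72, and those of *GSTZ1*, *PCBD1* and *QDPR* hold none. The 250 bases before each of the first 3 starts are printed 5′ to 3′ on the gene's strand with the matches in capitals, at positions found by exact match to GRCh37. They are chr1:45792317-45792566 on the plus strand for *HPDL*, and chr12:122296766-122297015 and chr12:122326518-122326767 on the minus strand for *HPD*.
HPDL: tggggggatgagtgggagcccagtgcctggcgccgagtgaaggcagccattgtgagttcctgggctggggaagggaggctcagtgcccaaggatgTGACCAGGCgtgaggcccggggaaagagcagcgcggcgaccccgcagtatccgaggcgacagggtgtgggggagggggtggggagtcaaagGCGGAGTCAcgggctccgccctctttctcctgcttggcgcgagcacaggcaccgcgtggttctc
HPD, start inside the gene: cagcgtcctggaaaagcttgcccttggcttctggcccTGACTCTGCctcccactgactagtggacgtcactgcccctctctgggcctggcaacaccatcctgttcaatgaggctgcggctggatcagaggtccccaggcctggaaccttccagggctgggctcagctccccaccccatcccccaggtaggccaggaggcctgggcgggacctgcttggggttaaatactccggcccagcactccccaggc
HPD, upstream start: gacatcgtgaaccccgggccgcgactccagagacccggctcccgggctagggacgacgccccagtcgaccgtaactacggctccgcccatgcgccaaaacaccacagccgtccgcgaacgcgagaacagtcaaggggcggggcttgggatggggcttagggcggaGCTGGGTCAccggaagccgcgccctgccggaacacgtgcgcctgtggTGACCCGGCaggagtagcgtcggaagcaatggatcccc
A match describes these letters only, and no binding was measured in these libraries.

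*TAT*, the first enzyme of the route (chr16:71599563-71610995, minus strand), was barely detected in any line. Its level lay between 0.230 and 0.466 FPKM in the A549 and H2023 libraries and at or below 0.0348 FPKM in H460. It never reached 1 FPKM and was not tested, which left 7 of the 8 genes for testing in each line. The other 7 were all protein-coding genes at 5.07 FPKM or more in every control library.

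*HPD*, which makes homogentisate (chr12:122277433-122301502, minus strand), had means after NRF2 siRNA that were 20.4% of control in H2023, 4.50% in H460 and 65.8% in A549. As RNA was taken from whole cultures, fewer cells that express a gene and less RNA per cell cannot be told apart in any of these values. In H2023 its level was 224 and 167 FPKM in control and 40.7 and 38.8 FPKM in NRF2 siRNA libraries (means of 195 ± 40.0 against 39.8 ± 1.29 FPKM, SD, n = 2). In H460 it was 10.9 and 11.2 FPKM in control and 0.416 and 0.577 FPKM after NRF2 siRNA (11.03 ± 0.232 against 0.496 ± 0.114 FPKM). In A549 it was 9.79 and 10.9 FPKM against 4.91 and 8.70 FPKM (10.3 ± 0.784 against 6.81 ± 2.68 FPKM). Both NRF2 siRNA libraries lay below both control libraries in every line, narrowly so with siRNA 30 in A549. On the log2(FPKM + 1) scale the change in limma was -2.25 ± 0.19 in H2023 (SE, adjusted p = 0.0213), -3.01 ± 0.26 in H460 (adjusted p = 0.0101) and -0.58 ± 0.26 in A549 (adjusted p = 0.417). Antisense RNA listed within the *HPD* bounds was at or below 0.287 FPKM.

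*HPDL*, the mitochondrial relative of HPD (chr1:45792567-45794382, plus strand), had lower levels after NRF2 siRNA in all 3 lines. Its control libraries held 5.07 and 5.67 FPKM in A549, 15.9 and 20.7 FPKM in H2023 and 12.4 and 16.8 FPKM in H460. The NRF2 siRNA libraries held 2.72 and 2.53 FPKM, 4.87 and 6.33 FPKM, and 2.06 and 1.87 FPKM in the same order. These are 48.9%, 30.7% and 13.4% of the control means, and no NRF2 siRNA library overlapped the control libraries of its line. The log2 fold change was -0.81 ± 0.16 in A549 (adjusted p = 0.145), -1.54 ± 0.24 in H2023 (adjusted p = 0.0693) and -2.38 ± 0.28 in H460 (adjusted p = 0.0137), so that it passed the threshold of 0.05 in H460.

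*HGD*, homogentisate 1,2-dioxygenase, whose loss causes alkaptonuria (chr3:120347019-120401116, minus strand), showed the same order of lines. Control libraries held 66.5 and 59.0 FPKM in A549, 50.1 and 30.6 FPKM in H2023, and 18.2 and 11.1 FPKM in H460. NRF2 siRNA libraries held 21.4 and 30.3 FPKM, 10.7 and 9.98 FPKM, and 0.854 and 0.508 FPKM in the same order. The means after NRF2 siRNA were thus 41.1% of control in A549 (62.8 ± 5.30 against 25.8 ± 6.28 FPKM), 25.6% in H2023 (40.4 ± 13.8 against 10.3 ± 0.490 FPKM) and 4.65% in H460 (14.6 ± 4.97 against 0.681 ± 0.244 FPKM), with no overlap in any line. In limma the log2 fold change was -1.27 ± 0.20 in A549 (adjusted p = 0.0851), -1.83 ± 0.27 in H2023 (adjusted p = 0.0622) and -3.19 ± 0.33 in H460 (adjusted p = 0.0120). In H460 *HGD* and *HPD* passed the filter on low values only through their control libraries, and the added constant of 1 FPKM makes the fitted fold smaller than the ratio of means.

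*FAH*, the last enzyme, whose loss causes hereditary tyrosinaemia (chr15:80444832-80479288, plus strand), was lower by a smaller step. In A549 it lay at 17.0 and 16.9 FPKM in control and 13.3 and 14.2 FPKM in NRF2 siRNA libraries, and in H2023 at 19.1 and 12.02 against 10.8 and 9.70 FPKM. In H460 it lay at 17.5 and 21.4 against 11.7 and 8.42 FPKM. The means after NRF2 siRNA were 81.3%, 66.0% and 51.9% of control, again without overlap in any line. None of the single lines passed, with log2 fold changes of -0.28 ± 0.14 (adjusted p = 0.448), -0.52 ± 0.26 (adjusted p = 0.387) and -0.89 ± 0.27 (adjusted p = 0.0746) in A549, H2023 and H460. The value in H2023 was -0.21 without control library 0 and -0.84 without control library 1.

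*GSTZ1*, maleylacetoacetate isomerase, which acts between HGD and FAH (chr14:77787339-77797940, plus strand), moved the other way. It went from 19.9 and 14.9 FPKM to 36.0 and 22.6 FPKM in A549, from 14.7 and 12.6 FPKM to 16.8 and 16.2 FPKM in H2023, and from 12.7 and 12.3 FPKM to 31.5 and 23.4 FPKM in H460. Every NRF2 siRNA library lay above both control libraries of its line, at means of 168%, 121% and 219% of control. The rise passed the threshold in H460, with a log2 fold change of 1.06 ± 0.25 (adjusted p = 0.0419), and did not pass in A549 (0.70 ± 0.26, adjusted p = 0.349) or H2023 (0.26 ± 0.18, adjusted p = 0.533). The value in A549 was 0.37 without the library of siRNA 28 and 1.02 without that of siRNA 30.

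*QDPR* and *PCBD1*, the genes for recycling of tetrahydrobiopterin, passed in no line. *QDPR* (chr4:17461884-17513829, minus strand) held 6.78 and 6.60 FPKM in control and 8.04 and 4.76 FPKM after NRF2 siRNA in A549, 16.4 and 16.7 against 19.1 and 14.1 FPKM in H2023, and 30.8 and 28.8 against 31.8 and 12.5 FPKM in H460. In each line its value with siRNA 28 was above both controls and with siRNA 30 below both. *PCBD1* was the most abundant of the 8 genes in A549 and H460, at 167 and 149 against 161 and 172 FPKM in A549, 172 and 147 against 155 and 173 FPKM in H2023, and 112 and 95.2 against 89.9 and 81.3 FPKM in H460. Its groups overlapped in A549 and H2023 and did not in H460. The 95% intervals of the log2 fold change in A549, H2023 and H460 were -0.70 to 0.51, -0.54 to 0.52 and -1.55 to 0.46 for *QDPR*, and -0.27 to 0.42, -0.37 to 0.46 and -0.79 to 0.25 for *PCBD1*. *PCBD1* lies within bounds shared with *SGPL1* on the opposite strand, at 8.63 to 19.7 FPKM, and the strand setting of the authors' counting is not given in the sources used here.

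**Figure D1:**
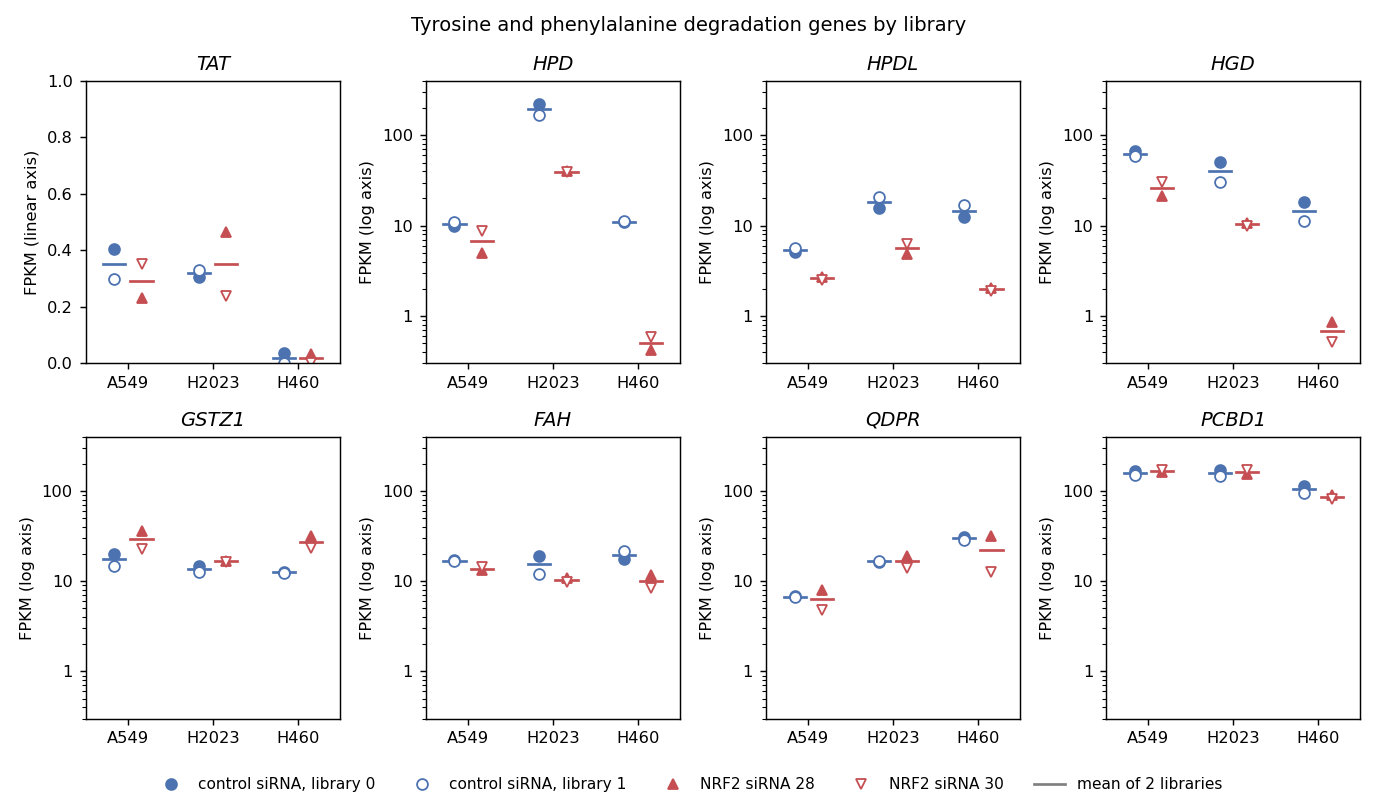
FPKM of each gene in the 12 libraries, by cell line, with a log axis except for *TAT* (linear axis); points are single libraries and bars the mean of 2. *HPD*, *HPDL*, *HGD* and *FAH* have both NRF2 siRNA points below both control points in every line and *GSTZ1* has both above, while *HGD* and *HPD* in H460 drop below 1 FPKM.

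In A549, 0 of the 7 genes tested passed in limma, where 0.554% of 13898 genes passed as lower and 0.122% as higher (0.676% in all), and 3 of the 7 (*HGD*, *HPDL* and *GSTZ1*) had an unadjusted p under 0.05, as did 1844 of all genes. *HGD* passed without the library of siRNA 30, at -1.51 (adjusted p = 0.0360), and when genes had to reach 1 FPKM in all 4 libraries (adjusted p = 0.0492). In H2023, 1 of 7 passed as lower, *HPD*, against a background of 0.583% lower and 0.327% higher (0.910% in all) among 14059 genes. *HPD* no longer passed without control library 0 (-2.04, adjusted p = 0.175) or control library 1 (-2.46, adjusted p = 0.111), fits that leave a lone control assumed to vary like the other group, and in which 0 of 14059 genes passed in limma, with 972 and 1008 at an unadjusted p under 0.05. Without the library of siRNA 28 or that of siRNA 30, fits that leave 1 NRF2 siRNA library, *HGD* and *HPDL* passed as well as *HPD*, so 3 genes were lower, but 585 and 478 of all 14059 genes were then lower in place of 82. In the fit with a replicate block, in which the library number was a term, 3 genes were likewise lower, as were 298 of all genes.

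In H460, 3 of 7 genes passed as lower (*HGD*, *HPD* and *HPDL*) where 6.86% of 13446 genes did, and 1 as higher (*GSTZ1*) where 7.12% did, with 14.0% of genes called in all. *HGD* and *HPD* entered this test only through their control libraries and so had to differ, and nothing is read from this count. With 1 FPKM required in all 4 libraries they were not tested, and 1 gene, *HPDL*, was lower. None of the 4 calls was kept without control library 0 (adjusted p between 0.160 and 0.267) or control library 1 (0.105 to 0.241), although the log2 fold change of *HGD*, for example, stayed between -3.52 and -2.86 with any 1 library of H460 left out. Without control library 0 or control library 1, only 1 of all 13446 genes passed in limma, so the loss is shared by the whole table. Without the library of siRNA 28, *FAH* (-1.11, adjusted p = 0.0402) and *QDPR* (-1.19, adjusted p = 0.0262) passed too, which made 5 lower, where 1478 of all genes were lower in place of 922, and *GSTZ1* did not (0.85, adjusted p = 0.0571). With mitochondrially encoded genes left out and the rest rescaled, the median of all tested genes in H460 went from -0.01 to 0.12, and the split of calls over all genes from 922 lower and 957 higher to 583 lower and 1189 higher. *HGD* (-3.08), *HPD* (-2.92), *HPDL* (-2.26) and *GSTZ1* (1.21) still passed on that scale, all 4 further from 0 than that median.

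Averaged over the 3 lines, which gives 6 residual degrees of freedom, 4 of 7 genes were lower where 14.5% of 11571 genes were, and 1 was higher where 15.2% were. Since *HGD* and *HPD* passed the filter in H460 only through their control libraries, nothing is read from the count of lower genes or from the median over the 7. The lower genes were *HGD* at -2.09 ± 0.17 (adjusted p = 3.23e-05), *HPD* at -1.95 ± 0.14 (adjusted p = 1.43e-05), *HPDL* at -1.58 ± 0.12 (adjusted p = 2.96e-05) and *FAH* at -0.57 ± 0.13 (adjusted p = 0.0109). *GSTZ1* rose by 0.67 ± 0.14 (adjusted p = 0.00578). *QDPR* (-0.22 ± 0.21, adjusted p = 0.457) and *PCBD1* (-0.05 ± 0.09, adjusted p = 0.697) did not pass, with intervals of -0.68 to 0.24 and -0.25 to 0.15. *QDPR* passed without the H460 library of siRNA 28 (-0.43, adjusted p = 0.0407). Over all 11571 genes, both NRF2 siRNA libraries lay below both control libraries in all 3 lines for 7.20%, as for the 4 lower genes, and above for 8.18%, as for *GSTZ1*. The median log2 fold change of the 7 genes was -0.57, and that of all genes -0.01.

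**Figure D2:**
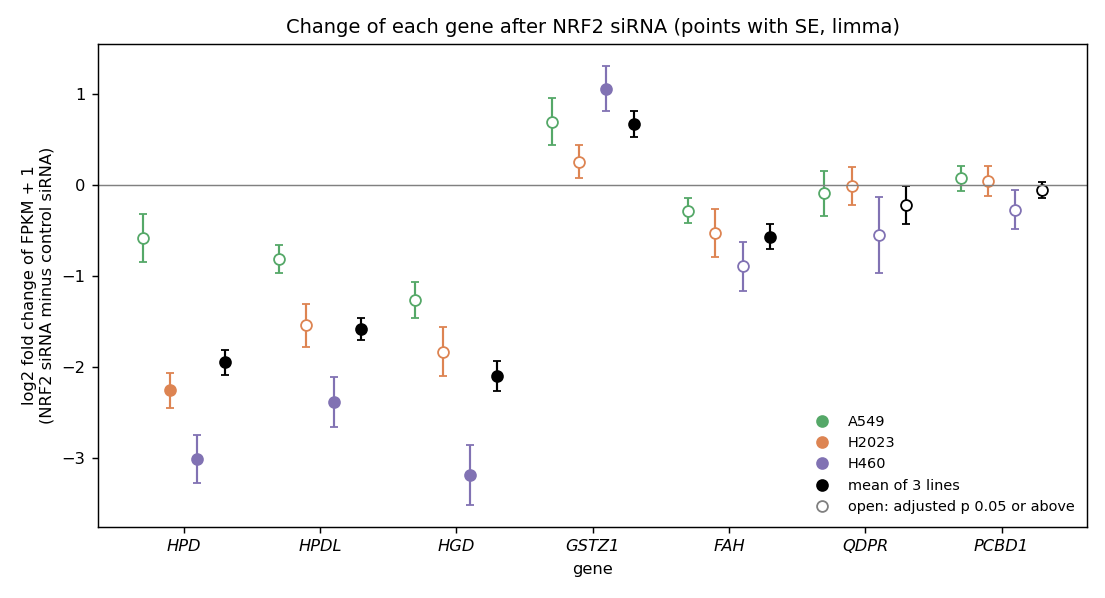
Log2 fold change of FPKM + 1 (NRF2 siRNA minus control siRNA) with its SE for the 7 genes tested, in each line and averaged; filled points have a limma adjusted p under 0.05. *HPD*, *HPDL* and *HGD* lie lowest in H460, *GSTZ1* lies above 0 throughout, and *QDPR* and *PCBD1* have no filled point.

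The size of the fall differed between lines for 2 of 7 genes by the interaction test, where 2.51% of 11571 genes passed: *HPD* (adjusted p = 0.0226) and *HPDL* (adjusted p = 0.0499). For *HGD* the adjusted p was 0.0601. Nothing is read from the count of 2, since *HPD* entered the H460 part of the test only through its control libraries. Between pairs of lines, the change was more negative in H460 than in A549, for *HPD* by -2.43 ± 0.34 (adjusted p = 0.0159), for *HGD* by -1.92 ± 0.40 (adjusted p = 0.0399) and for *HPDL* by -1.57 ± 0.30 (adjusted p = 0.0320), 3 of 7 genes where 3.13% of all genes passed, a count from which nothing is read, since *HGD* and *HPD* entered the H460 part of the test only through their control libraries. That of *HPD* was lost without A549 control library 0 or 1, the A549 library of siRNA 28 or H460 control library 0. That of *HGD* was lost without any 1 A549 library, either H2023 control library, H460 control library 0 or the H460 library of siRNA 30. That of *HPDL* was lost without any 1 A549 library or any 1 control library of H2023 or H460. These fits leave 1 library in a group. With any 1 library left out, the difference stayed between -2.79 and -2.07 for *HPD*. It stayed between -2.25 and -1.59 for *HGD* and between -1.78 and -1.37 for *HPDL*. With mitochondrially encoded genes, whose share was higher after NRF2 siRNA in H460, left out, *HGD* (-1.71, adjusted p = 0.0578) and *HPDL* (-1.36, adjusted p = 0.0661) did not pass, nor did *HGD* with no filter on low values (adjusted p = 0.0903). That rescaling moved the median difference of all genes from -0.07 to 0.16 and their calls from 198 more negative and 164 more positive in H460 to 37 and 280. No gene of the 7 passed between H2023 and A549 (0.00864% of all genes) or between H460 and H2023 (3.32%), and their unadjusted p was under 0.05 for 2 (*HPD* and *HPDL*) and 4 (*HPD*, *HGD*, *HPDL* and *GSTZ1*), where it was for 603 and 2607 of all 11571 genes. The interaction of *HPD* was lost without A549 control library 0 or 1, the A549 library of siRNA 30, or control library 0 or 1 of H2023 or of H460 (adjusted p between 0.0516 and 0.0892). That of *HPDL* was lost without any 1 of 10 of the 12 libraries, the exceptions being the siRNA 28 libraries of H2023 and H460, at adjusted p between 0.0527 and 0.148. That of *HGD* passed without the H460 library of siRNA 28 (adjusted p = 0.0480). A549 differs from the other lines in library protocol too. *NFE2L2* itself fell less in A549, though its difference between H460 and A549 did not pass (-1.36 ± 0.40, adjusted p = 0.0877).

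A direct comparison of the genes within libraries asked whether *HGD* or *HPDL* fell more than the rest of the route. For 11 pairs, the log2 ratio of the 2 genes was compared between NRF2 siRNA and control libraries within lines by a two-sided exact permutation test over 216 assignments, with adjustment over the 11 pairs. The smallest p this design can give is 0.00926. The study picked *HGD* and *HPDL* on these libraries, and *HPD* was not picked so, hence a larger fall of either than of the other genes is not independent evidence. *HGD* and *HPD* also entered through their control libraries in H460. *HGD* fell more than *FAH* (mean change of the log2 ratio -1.53), *GSTZ1* (-2.77), *QDPR* (-1.88) and *PCBD1* (-2.04), and *HPDL* fell more than *FAH* (-1.01), *GSTZ1* (-2.25), *QDPR* (-1.36) and *PCBD1* (-1.53). All 8 had the smallest possible p (exact permutation test, adjusted p = 0.0127) and were negative in each of the 3 lines. Against *HPD* the result was different. The ratio of *HGD* to *HPD* changed by -0.69 in A549, 0.42 in H2023 and -0.18 in H460, a mean of -0.15 (exact permutation p = 0.472, adjusted p = 0.472). That of *HPDL* to *HPD* changed by a mean of 0.37 (exact permutation p = 0.157, adjusted p = 0.173), and that of *HGD* to *HPDL* by -0.52 (exact permutation p = 0.0926, adjusted p = 0.113). *HPDL* against *HPD* passed without the A549 library of siRNA 30 (0.50, adjusted p = 0.0113 in the exact permutation test), and *HGD* against *HPDL* without H2023 control library 1 (-0.69, adjusted p = 0.0127).

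The siRNAs were compared with each other in the 6 NRF2 siRNA libraries, with line as a covariate. None of the 7 genes passed, as for 0% of 15716 genes in limma, of which 2853 had an unadjusted p under 0.05. For *HGD* the difference of siRNA 28 minus siRNA 30 was -0.03 ± 0.21 and for *HPDL* -0.05 ± 0.18, with intervals of -0.55 to 0.48 and -0.50 to 0.40. The difference of *HPD* was -0.27 ± 0.21. *QDPR*, the 1 gene of the 7 with an unadjusted p under 0.05 in limma, differed by 0.78 ± 0.21 (adjusted p = 0.175) and was higher with siRNA 28 in each line. In a fit of all 12 libraries it passed (adjusted p = 0.0122), as did 1449 of the 15716 genes.

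**Figure D3:**
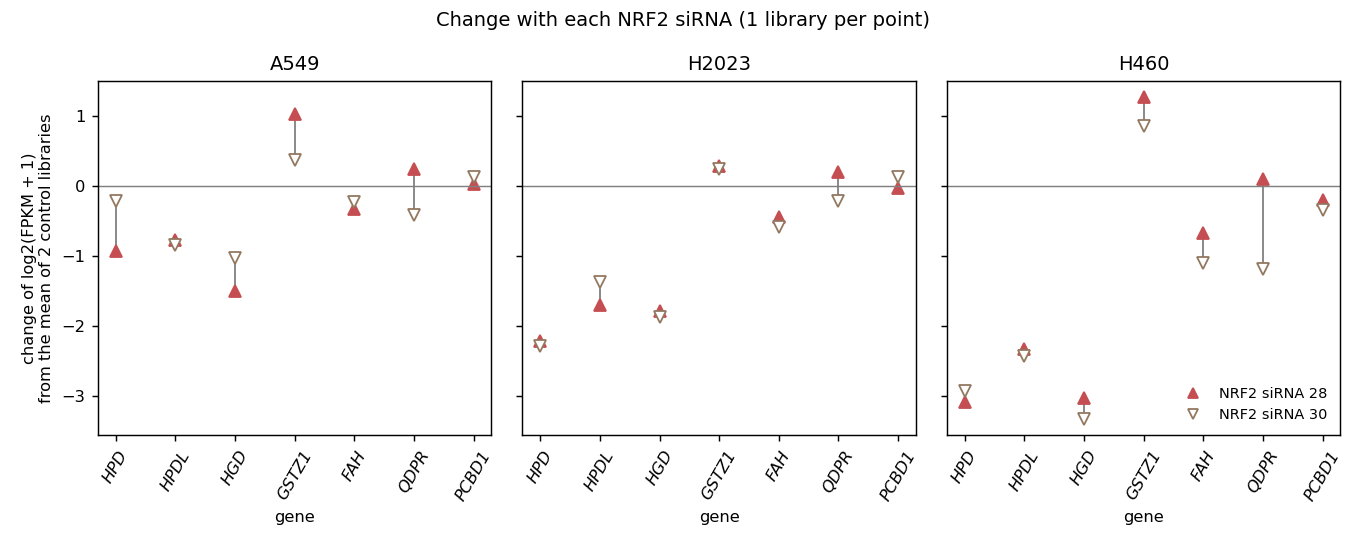
Change of log2(FPKM + 1) from the mean of the 2 control libraries for siRNA 28 and siRNA 30, with 1 library per point, in each line. The points of *HPDL* and *HGD* lie near each other relative to their distance from 0, except for *HGD* in A549 (-1.51 and -1.03), whereas those of *QDPR* lie on either side of 0 in every line.

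Levels of the genes in control libraries were ordered by FPKM within each line. In A549 the order of means was *PCBD1* (158 FPKM), *HGD* (62.8 FPKM), *GSTZ1* (17.4 FPKM), *FAH* (16.9 FPKM), *HPD* (10.3 FPKM), *QDPR* (6.69 FPKM), *HPDL* (5.37 FPKM) and *TAT* (0.352 FPKM), with overlap between libraries for *GSTZ1* and *FAH* and for no other neighbours. In H2023 *HPD* (195 FPKM) and *PCBD1* (159 FPKM) overlapped at the top, *HGD* (40.4 FPKM) followed, and *HPDL*, *QDPR*, *FAH* and *GSTZ1* formed a run of overlapping neighbours between means of 18.3 and 13.7 FPKM. H460 had *PCBD1* (104 FPKM) above *QDPR* (29.8 FPKM), then an overlapping run of *FAH*, *HGD*, *HPDL* and *GSTZ1* from 19.4 to 12.5 FPKM, and then *HPD* (11.03 FPKM). After NRF2 siRNA, *HGD* in H460 had moved below *HPDL*, and in H2023 *HGD* had moved below *QDPR* and *GSTZ1*.

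H2023 and H460 shared a library protocol, and their control libraries were compared in limma. Of the 7 genes, 3 were higher in H2023 against 18.0% of 15282 genes, and 0 were higher in H460 against 16.6%, with 34.6% of genes called in all. *HPD* differed by 4.01 ± 0.20 on the log2 scale (adjusted p = 1.54e-05), *HGD* by 1.40 ± 0.31 (adjusted p = 0.0118) and *PCBD1* by 0.62 ± 0.18 (adjusted p = 0.0306). *QDPR* was at -0.81 ± 0.38 (adjusted p = 0.133), and *QDPR*, *FAH*, *HPDL* and *GSTZ1* had no unadjusted p under 0.05. *HGD* did not pass without H2023 control library 0 (1.05, adjusted p = 0.0971) or H460 control library 1 (1.07, adjusted p = 0.0778). *PCBD1* was lost without any 1 of the 4 control libraries (adjusted p between 0.0657 and 0.190), and *QDPR* passed as lower in H2023 without either H460 NRF2 siRNA library (adjusted p = 0.0179 and 0.0171).

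Genes around the route were taken from lists and set beside the 7. All 6 NRF2 reference targets were lower in A549 and H460 and 5 of 6 in H2023, where 0.554%, 6.86% and 0.583% of all genes were lower in A549, H460 and H2023, with medians of -2.58, -2.97 and -3.09 in A549, H460 and H2023, where the medians of all genes were 0.02, -0.01 and 0.02. *NQO1*, which reduces quinones, averaged -2.50, *GCLM* and *GCLC*, the subunits of the first enzyme of glutathione synthesis, -3.29 and -2.47, and *NR0B1*, an orphan nuclear receptor, -3.57. The medians of the tyrosine degradation genes in A549, H2023 and H460 were -0.28, -0.52 and -0.89. Calls of list genes in single lines depended on control libraries, as those of the route did. Beside the route's own genes, 18 list genes were called in H460, where 14.0% of all genes were, and all 18 lost their call without control library 0 (adjusted p between 0.106 and 0.277) or control library 1 (0.105 to 0.290), fits in which 1 of all 13446 genes passed. In H2023 all 5 were lost without control library 0 (0.0954 to 0.162) or 1 (0.0745 to 0.134), and in A549 4 of 8 (*DDC*, *KYNU*, *NQO1* and *SLC7A11*) without control library 0 (0.0955 to 0.269) or 1 (0.0676 to 0.170). Without 1 NRF2 siRNA library, *KYNU* was lost in A549 (siRNA 28, 0.0855), and *GCHFR* (either siRNA, 0.0723 and 0.0571) and *SLC3A2* (siRNA 28, 0.0542) in H460.

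Of 11 genes for phenylalanine entry and tetrahydrobiopterin, 7 were tested in A549 and in H2023 and 6 in H460. In A549 and H2023 none passed in limma, and 1 per line had an unadjusted p under 0.05, where 1844 of 13898 and 2378 of 14059 genes did. In H460 *GCHFR*, the feedback regulator of GTP cyclohydrolase, was higher (1.13, adjusted p = 0.0464). *GCH1*, the GTP cyclohydrolase that starts tetrahydrobiopterin synthesis, was lower on average (-1.21, adjusted p = 0.0386), while *PCBD2*, the relative of *PCBD1*, was at -0.07. Without any 1 of 9 libraries the average of *GCH1* did not pass (adjusted p between 0.0615 and 0.104), the exceptions being H2023 control library 1 and the siRNA 28 libraries of H2023 and H460.

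Of 12 genes for other tyrosine transamination and uses, 6, 7 and 5 were tested in A549, H2023 and H460. *DDC*, aromatic amino acid decarboxylase, was lower in A549 (-1.68, adjusted p = 0.0116). It went the other way in H2023 without passing (0.33, adjusted p = 0.515), and was not tested in H460. *GOT2*, the mitochondrial aspartate aminotransferase, was lower in H460 (-1.17, adjusted p = 0.0243) and on average (-0.55, adjusted p = 0.00103). Its cytosolic relative *GOT1* was lower on average (-0.48, adjusted p = 0.0143). *MIF* was at -0.26 on average (adjusted p = 0.0959) and passed without H460 control library 1 (-0.34, adjusted p = 0.0303). *IL4I1*, which can oxidise aromatic amino acids, was at or below 0.546 FPKM.

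Of 9 genes that use fumarate and acetoacetate, the products of FAH, none passed in a single line in limma, with 2, 3 and 4 at an unadjusted p under 0.05 in A549, H2023 and H460, where 1844 of 13898, 2378 of 14059 and 4538 of 13446 genes were. On average *AACS*, which activates acetoacetate in the cytosol, was higher by 0.61 (adjusted p = 0.00317). *FH*, fumarase, was at -0.42 (adjusted p = 0.0557) and *ACAT1* at 0.42 (adjusted p = 0.0622). Both passed without the H460 library of siRNA 28 (-0.55 and 0.57), *FH* also without that of H2023 (-0.49). In limma *FH* passed with a replicate block (adjusted p = 0.0374) and *ACAT1* with mitochondrially encoded genes left out (adjusted p = 0.0475). The 3 relatives of *FAH* passed in no line, with none at an unadjusted p under 0.05 in limma, and only *FAHD2B* passed on average (0.41, adjusted p = 0.0264), a call lost without any 1 of 8 libraries (adjusted p between 0.0506 and 0.0821), the exceptions being A549 control library 0, the siRNA 28 libraries of H2023 and H460 and the siRNA 30 library of H460.

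All 13 coenzyme Q genes were tested in each line, the list of interest for HPDL. Of these, 0 passed in A549 and H2023 in limma, with 4 and 1 at an unadjusted p under 0.05 where 1844 of 13898 and 2378 of 14059 genes were, and 2 were lower in H460, where 6.86% of all genes were. The latter were *PDSS1*, which makes the side chain (-1.98, adjusted p = 0.0188), and *COQ8A* (-1.55, adjusted p = 0.0240). On average *PDSS1* (-1.08, adjusted p = 0.00222), *COQ3* (-0.50, adjusted p = 0.00765) and *COQ8A* (-0.88, adjusted p = 0.000660) were lower and *COQ10B* higher (0.81, adjusted p = 0.00777), 4 of 13 genes, near the 29.7% of all genes called in either direction. The median of the list was -0.17 in H460.

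Of 6 aromatic amino acid transporter genes, 4, 3 and 5 were tested in A549, H2023 and H460. None passed in A549 or H2023 in limma, though 3 in each had an unadjusted p under 0.05, where 1844 of 13898 and 2378 of 14059 genes did. In H460, where 6.86% of all genes were lower, *SLC7A5* (-1.84, adjusted p = 0.0188), its heavy chain *SLC3A2* (-1.58, adjusted p = 0.0314) and *SLC7A8* (-1.90, adjusted p = 0.0215) were lower. *SLC7A5* (-1.17, adjusted p = 0.000198) and *SLC3A2* (-1.07, adjusted p = 0.000840) were lower on average, and *SLC43A2* was at 0.30.

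Lists for other amino acid degradation were set beside the route. Of the tryptophan genes, 4, 5 and 4 of 9 were tested and 1 passed, *KYNU*, kynureninase, lower in A549 (-1.37, adjusted p = 0.0482, and between 0.0541 and 0.285 with a pseudocount of 0.1, no filter, no trend in the prior variance, mitochondrially encoded genes left out, the replicate block or 1 fit of 12 libraries) and on average (-1.06, adjusted p = 0.00505), while *QPRT* was higher on average (0.65, adjusted p = 0.00444). *TDO2* and *AFMID* averaged -0.60 and 0.01 and did not pass, although *TDO2* did without the siRNA 30 library of H2023 (adjusted p = 0.0151) or of H460 (adjusted p = 0.0112). Of 21 branched-chain amino acid genes, 21, 20 and 21 were tested and 1 passed, *BCAT1*, the cytosolic aminotransferase, lower in H460 (-2.11, adjusted p = 0.0178). Their medians stayed between -0.09 and 0.14, and *BCKDHB* alone passed on average (0.29, adjusted p = 0.0431), and only with all libraries or without the H2023 library of siRNA 30 (otherwise 0.0503 to 0.106). Of 11 histidine, lysine and proline genes, 7, 8 and 7 were tested. In H460 *AMDHD1*, of histidine degradation, was higher (2.82, adjusted p = 0.0201) and *AADAT*, an aminotransferase of lysine and tryptophan degradation, was lower (-1.34, adjusted p = 0.0340). Both kept these directions on average (1.46, adjusted p = 0.00101 and -0.50, adjusted p = 0.0314), and *OAT* was at 0.17. With mitochondrially encoded genes left out, the average of *AADAT* did not pass in limma (-0.46, adjusted p = 0.0787). Nor did it pass with no filter on low values (adjusted p = 0.0965). The average of *AADAT* did not pass without any 1 of 8 libraries (adjusted p between 0.0593 and 0.0969), the exceptions being A549 and H2023 control library 0, the H2023 library of siRNA 30 and the H460 library of siRNA 28. *BCAT1*, *DDC* and *SLC7A8* are named because they passed in 1 line.

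**Figure D4:**
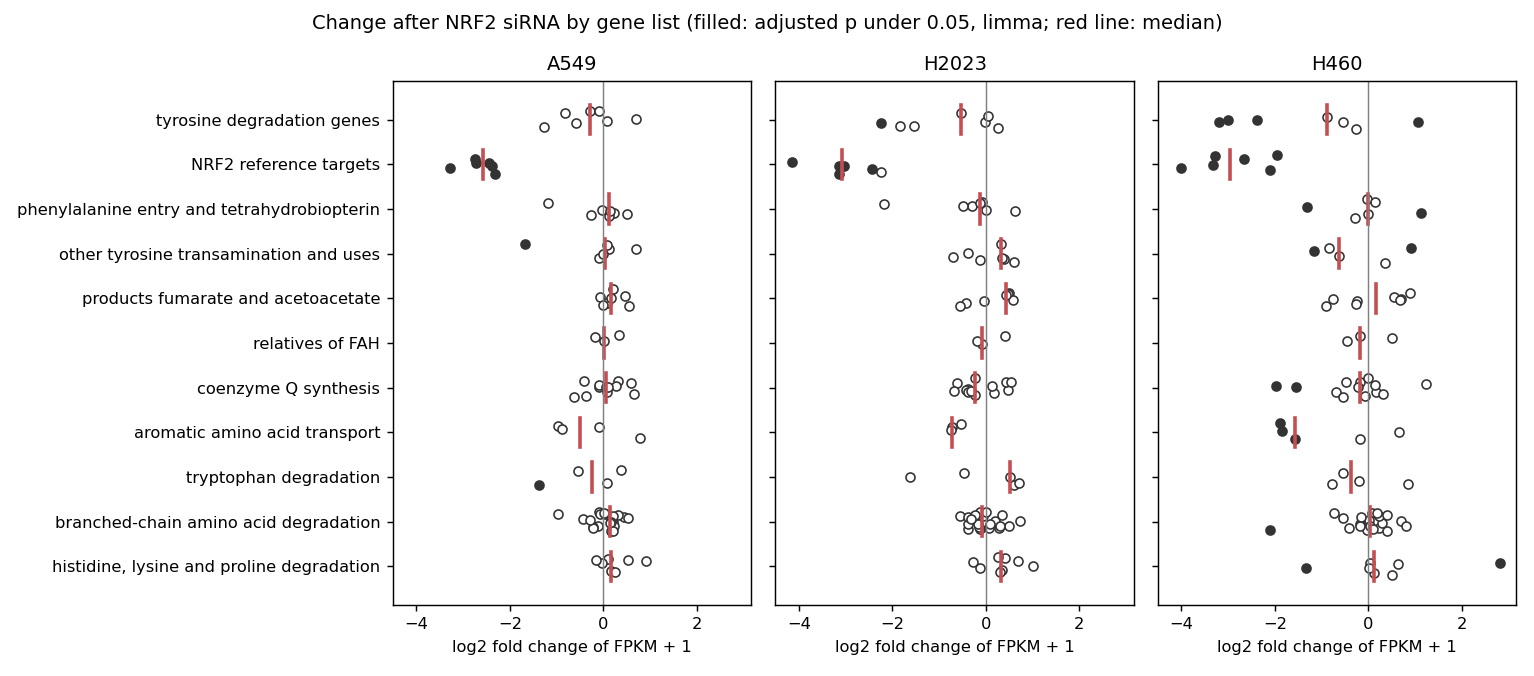
Log2 fold change of FPKM + 1 after NRF2 siRNA for each tested gene of each list in the 3 lines; filled points have a limma adjusted p under 0.05 and red bars are list medians. The NRF2 reference targets lie well below 0 in every line, the tyrosine degradation genes spread from -3.19 to 1.06 in H460, and branched-chain genes centre near 0.

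The genes most like *HGD* and *HPDL* across libraries were listed as a description, by Pearson's r of log2(FPKM + 1) centred on each line over the 12 libraries, among 11570 other genes. The 12 points share the siRNA contrast, so any gene that moved with NRF2 siRNA scores high. For *HGD* the first 5 were *GCNT3* (r = 0.987), *PSMD11*, *MRPS35*, *MRGBP* and *POLR1B* (0.979), and for *HPDL* they were *FBXO30* (0.988), *POLR2F*, *TET3*, *NLN* and *NUP153* (0.982). Their average log2 fold changes lay between -1.43 (*NLN*) and -0.45 (*TET3*). *HPD* ranked 34th for *HGD* (r = 0.963) and 61st for *HPDL* (r = 0.957), *HPDL* ranked 120th for *HGD* and *HGD* 105th for *HPDL* (r = 0.941). *NFE2L2* ranked 126th and 142nd. *GSTZ1* had r of -0.82 with both.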

How the data were processed

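The study's methods name TopHat for alignment (hg19) and Cufflinks for FPKM, whereas the submitters' processing notes name STAR 2.5.3a, Cuffnorm, HTSeq and DESeq2, so which aligner made these values is uncertain. For every library the authors deposited FPKM values, scaled to length and library size, and 1 table per line of their own DESeq2 comparison (mean normalised count, log2 fold change with standard error, test statistic, p-values), which was not used here. Identifiers were matched to symbols without version (96.1% matched), and gene bounds are those of GENCODE lifted to GRCh37. In all, 12710 values under 1e-06 were set to 0, and no libraries were identical.

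Fold changes were taken as differences of log2(FPKM + 1), which makes those of low genes too small. Genes at 1 FPKM or more in at least 2 of the 4 libraries of a line were tested with limma 3.58.1 in R 4.3.3, the prior variance following mean expression, with Benjamini-Hochberg adjustment over all tested genes and a threshold of 0.05. Fits of 12 libraries used genes passing that filter in every line. Scripts in Python 3.11.15 (pandas 2.3.3, scipy 1.17.1) ran the exact permutation tests, and the limma fits were tested on simulated data. P-values measure the spread between these libraries, and with 2 per group 1 line alone has 2 residual degrees of freedom. Fits that left out a library kept the genes tested with all libraries.

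The labels do not say whether library numbers shared by control and NRF2 siRNA groups mark a shared experiment, and they were not taken as pairs, since the correlation of deviations from group means was not above 0.1 in every line: -0.0052 for A549, 0.339 for H2023 and 0.134 for H460. All 8 genes are named with values. Of each list at most 4 genes are named, those with the smallest p of the average effect, beside genes that passed in 1 line. The genes, lists and tests were chosen with earlier results of these data known. Alternatives changed the pseudocount, the filter, the prior variance, the scaling, the libraries in the fit and the block. Some listed genes and markers that entered the counts and summed levels are not reported here by name.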

Additional observations from a re-analysis of the deposited data

Results flagged for a closer look

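Results that differed between lines under the same contrast were singled out by the test of the difference itself in limma. The change of *HPD* with NRF2 siRNA differed across the 3 lines (adjusted p = 0.0226) and was more negative in H460 than in A549, by -2.43 on the log2 scale, with values of -0.94 and -0.22 for siRNA 28 and siRNA 30 in A549 and of -3.09 and -2.93 in H460. *HPD* and *HGD* entered the test in H460 only through their control libraries. The change of *HPDL* differed across lines (adjusted p = 0.0499), a call lost without any 1 of 10 of the 12 libraries, and between H460 and A549 by -1.57, which did not pass with mitochondrially encoded genes left out (adjusted p = 0.0661). That of *HGD* differed between H460 and A549 by -1.92, while its test across all 3 lines did not pass. A549 libraries were prepared by rRNA removal, so line and protocol cannot be told apart in these differences. The targeted gene *NFE2L2* changed by -2.24 in A549 and -3.60 in H460 on the log2 scale.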

How the results depend on the processing

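The directions of *HGD*, *HPD*, *HPDL*, *FAH* and *GSTZ1* were kept in each line and on average under every alternative run, and 8 of 11 pairs passed with a pseudocount of 0.1, with 8 to 9 passing when 1 library was left out. Counts of genes called moved more. With no filter on low values, the lower genes went from 1 to 0 in H2023 and from 3 to 0 in H460, the higher from 1 to 0 in H460, those higher in H2023 than in H460 from 3 to 1 and those differing between lines from 2 to 1. No gene of the whole table passed in any single line under that setting, which tests more genes. With 1 FPKM required in all 4 libraries, 1 gene was lower in A549 and 1 in H460, since *HGD* and *HPD* were then not tested in H460. Over all genes, 86 of 12662 in A549 and 914 of 11698 in H460 were then lower. In 1 fit of all 12 libraries, 3 genes were lower in H2023, as were 305 of all 14059 genes in place of 82. *QDPR* was then higher with siRNA 28, as were 892 of all 15716 genes. In that fit *FAH* also passed as lower in H460 (-0.89, limma adjusted p = 0.0149). There 2256 of all 13446 genes were lower in place of 922. The genes differing between lines fell to 1 without the trend in the prior variance, with median scaling and with mitochondrially encoded genes left out.

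The fit with a replicate block gave 3 lower genes in H2023 in place of 1 and 1 gene differing between lines in place of 2, and changed no other call of the 7 genes. Over all genes it called 711 in place of 128 in H2023 and 3177 in place of 1879 in H460.

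When 1 library at a time was left out, the lower genes ranged from 0 to 1 in A549, 0 to 3 in H2023 and 0 to 5 in H460, and the higher genes in H460 from 0 to 1. Genes differing between lines ranged from 0 to 3, those higher in H2023 than in H460 from 1 to 3, and those lower from 0 to 1. Signs turned for small changes that had not passed. With mitochondrially encoded genes left out these were *PCBD1* in A549 (-0.033) and *QDPR* in H2023 (0.082), and with a pseudocount of 0.1 *HGD* between siRNAs (0.082). Leaving out 1 library gave *QDPR* from -0.42 to 0.23 in A549, -0.22 to 0.20 in H2023 and -1.19 to 0.089 in H460, *PCBD1* from -0.0074 to 0.16 in A549 and -0.074 to 0.16 in H2023, and the difference between siRNAs from -0.20 to 0.19 for *HGD*, -0.12 to 0.086 for *HPDL* and -0.12 to 0.024 for *PCBD1*. The averages of *AFMID* ranged from -0.15 to 0.18 and of *PCBD2* from -0.16 to 0.016. The cause of these shifts was not tested. Single lines rest on 2 libraries per group, and read depth is not known from FPKM.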
